A study of Mus musculus with 7 samples.

Results

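The nuclear factor I (NFI) genes of the mouse are *Nfia*, *Nfib*, *Nfic* and *Nfix*, and all 4 were examined here for cytosine modification during chondrogenic differentiation of ATDC5 cells. ATDC5 is a mouse teratoma-derived chondroprogenitor line, which forms cartilage-like cells when cultured with insulin, transferrin and selenite. A peak was counted at a gene where the authors had assigned it that gene's symbol, or where it lay in the gene body or within 50 kb of it on GRCm38. By this rule 10 of the 8949 peaks in the 4 deposited lists belonged to NFI genes.

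The series held 7 samples of genomic DNA from ATDC5 cells. DNA carrying 5-methylcytosine (5mC) had been captured at day 0 and day 10 (1 sample each) and DNA carrying 5-hydroxymethylcytosine (5hmC) at day 5 and day 10 (2 samples each), and 1 sample was day 0 input DNA, which was not analysed here. Day 0 cells were undifferentiated progenitors and the others had been in differentiation medium for the days given. The 2 samples of a 5hmC day were merged by the authors into 1 list. The spread between samples is therefore not known for any value here, and no difference between days was tested. Days are given as in the labels, and the study's methods name different ones. No expression was measured in these samples, so the cell type was not checked against marker genes.

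NFI proteins are transcription factors that share a DNA-binding and dimerization domain and differ in the rest of the protein. As dimers they bind a palindrome, TTGGC followed after 5 bases by GCCAA, and more weakly a single arm of it, and they can activate or repress their targets. *Nfia* is known for glial fate in the brain, *Nfib* for lung and brain maturation, *Nfic* for tooth root formation and *Nfix* for fetal muscle and for skeletal overgrowth syndromes when mutated. 5hmC is made from 5mC by TET enzymes and is often found in gene bodies and at enhancers.

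The sequences that carry the results are given first, 5′ to 3′ on the plus strand of the GRCm38 reference; they are the reference genome and not reads of ATDC5 cells. The first is shown because this *Nfib* region was listed for 5hmC at both days. It is the first 300 bases of the day 5 peak in intron 2 of *Nfib* (chr4:82404328-82404627), and its bases 117 to 286 are the day 10 peak. Capitals mark the NFI string CTTGGCA or its reverse complement TGCCAAG.
Nfib day 5 5hmC: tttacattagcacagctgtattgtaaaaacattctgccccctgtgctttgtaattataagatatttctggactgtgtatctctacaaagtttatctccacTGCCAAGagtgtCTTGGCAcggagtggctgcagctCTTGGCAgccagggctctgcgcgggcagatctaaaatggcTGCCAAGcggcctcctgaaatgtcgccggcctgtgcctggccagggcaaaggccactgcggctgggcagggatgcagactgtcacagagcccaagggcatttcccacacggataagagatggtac
The next stretch holds the only NFI string of the *Nfic* day 5 peak, with 30 bases in all (chr10:81431550-81431579). It lies outside the *Nfic* day 10 peak, and capitals mark TGCCAA, the reverse complement of TTGGCA.
Nfic day 5 5hmC: caaggtagcgggTGCCAAagatgggcgggg
The *Nfia* and *Nfix* peaks are shown whole because each was the only peak of its gene (chr4:97771039-97771177 and chr8:84776408-84776521), and capitals mark CpG, the usual site of both marks in mammals.
Nfia day 10 5hmC: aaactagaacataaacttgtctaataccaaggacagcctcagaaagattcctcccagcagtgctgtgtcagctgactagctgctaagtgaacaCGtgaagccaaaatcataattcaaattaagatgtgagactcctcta
Nfix day 10 5hmC: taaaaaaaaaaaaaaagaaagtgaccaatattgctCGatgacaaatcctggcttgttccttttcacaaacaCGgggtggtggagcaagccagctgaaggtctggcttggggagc
The last is the most CpG-rich stretch of 300 bases in the only 5mC peak at an NFI gene (chr4:82658769-82659068, capitals mark CpG).
Nfib day 10 5mC: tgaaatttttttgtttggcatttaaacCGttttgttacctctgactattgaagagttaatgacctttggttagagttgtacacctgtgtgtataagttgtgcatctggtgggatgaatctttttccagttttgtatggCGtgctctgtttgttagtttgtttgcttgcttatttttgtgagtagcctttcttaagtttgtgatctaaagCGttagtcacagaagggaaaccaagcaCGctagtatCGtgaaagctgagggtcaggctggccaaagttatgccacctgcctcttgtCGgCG
Counted as TTGGCA, the *Nfib* day 5 peak held 4 NFI strings and the *Nfic* day 5 peak held 1. The *Nfib* day 10 peak held 2 of these 4, and the *Nfic* day 10 peak held none. The longer CTTGGCA was in neither *Nfic* peak. The *Nfib* 5mC peak also held TTGGCA, at 82658783 and 82659161, and the first of these is in the printed stretch without capitals. The *Nfia* peak held a single CpG.

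Every NFI gene had a day 10 5hmC peak. *Nfib* had 3, and *Nfia*, *Nfic* and *Nfix* had 1 each. Among all 21951 protein-coding genes, 20.6% had a day 10 5hmC peak by the same rule. Longer genes had one more often, and of the 5007 with a body of at least 50 kb, which all 4 NFI genes exceed, the share was 33.9%. At day 5, 2 of the 4 genes had a 5hmC peak, *Nfib* with 2 and *Nfic* with 1, against 14% of all protein-coding genes and 21.6% of those of at least 50 kb. *Nfia* and *Nfix* were listed at day 10 only. Peaks at both days were found for *Nfib* and *Nfic*, against 7.57% of all protein-coding genes and 13.8% of those of at least 50 kb. Among genes of at least 100 kb, which include *Nfib* but not *Nfic*, this share was 17.6%. These counts are descriptions of 1 list for each day, and the family was not tested against other genes.

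For 5mC, *Nfib* had 1 day 10 peak and the other 3 genes had none. With 1 of 4 genes, this is near the background of 24.5% among genes of 50 kb or more (15.9% of all protein-coding genes). No NFI gene had a day 0 5mC peak, against 1.84% of protein-coding genes, a share at which no peak in 4 genes is not a result. The count of 0 among 326 day 0 peaks allows a share of up to 0.92% of that list when taken as 3 counts, and of up to 1.13% by the exact Clopper-Pearson 95% interval. NFI genes held 6 of 4164 day 10 5hmC peaks (0.144%, exact Clopper-Pearson 95% interval 0.0529 to 0.313), 3 of 2058 day 5 5hmC peaks (0.146%, 0.0301 to 0.425) and 1 of 2401 day 10 5mC peaks (0.0416%, 0.00105 to 0.232). The intervals cover counting error over peaks only, since sequencing depth is unknown here. They treat peaks as independent, though 3 of the 6 day 10 5hmC peaks lay in the same intron of *Nfib*. No expected share of a list was computed, so these shares are not read as high or low. The 5mC lists hold regions of at least 3-fold and the 5hmC lists of at least 10-fold enrichment, so the number of peaks cannot be compared between the marks.

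**Figure D1:**
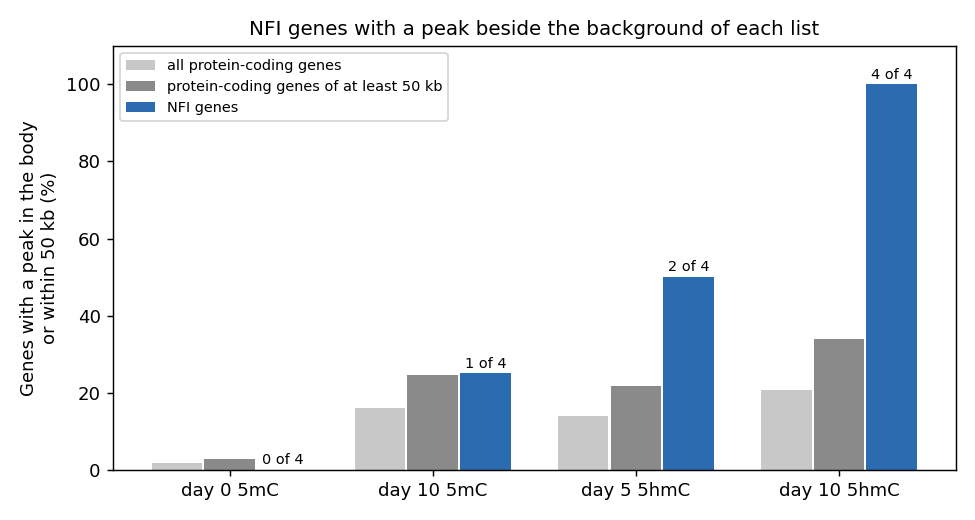
Percent of genes with a peak in the gene body or within 50 kb (y axis) in each of the 4 lists (x axis), for all 21951 protein-coding genes (light grey), the 5007 of at least 50 kb (dark grey) and the 4 NFI genes (blue, with their number). All 4 NFI genes had a day 10 5hmC peak and none a day 0 5mC peak; there are no error bars because each list is 1 list.

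*Nfib* had the most peaks by count, but not for its length. Per 100 kb of gene body and flanking 50 kb, *Nfic* had 0.627 5hmC peaks at each day, and *Nfib* had 0.388 at day 5 and 0.582 at day 10. The *Nfic* values rest on 1 peak each and the *Nfib* values on 2 and 3, so this order is only a description. *Nfib* lies on chromosome 4 from 82290173 to 82705750 on the minus strand in GENCODE (416 kb, 7 coding transcripts), and it is longer than 98.5% of protein-coding genes. Its 3 day 10 5hmC peaks lay at chr4:82404444-82404613, chr4:82426928-82427074 and chr4:82466685-82466892, with 22.3 kb and 39.6 kb between neighbours. All 3 were in intron 2 of 6 of the 7 coding transcripts and over no exon. The nearest coding start was 38.5 kb upstream of the closest of them, so none was near a promoter. Of all protein-coding genes, 1.82% had 3 or more day 10 5hmC peaks (5.31% at 50 kb or more and 8.27% at 100 kb or more). *Nfib* is far longer than either limit.

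The day 5 5hmC peaks of *Nfib* were at chr4:82404328-82404982 and chr4:82552209-82552788. The first was in intron 2 and contained the day 10 peak of the printed sequence. The second was not found at day 10. It lay in intron 1 of a single long coding transcript, 46.7 kb upstream of the nearest start of the others, and 45.5 kb outside the shorter gene body that RefSeq gives for *Nfib*. The day 10 5mC peak, chr4:82658766-82659625, was in the same long intron, 46.6 kb after its start and 152.0 kb outside the RefSeq gene body. It is therefore counted at *Nfib* by the GENCODE annotation only, and the authors assigned neither of these peaks to a gene. From the 5′ end of the long transcript the order was 5mC at 46.6 kb, day 5 5hmC at 153 kb, day 10 5hmC at 239 and 279 kb, and 5hmC of both days at 301 kb. No 5hmC peak at an NFI gene overlapped a 5mC peak, and 106 kb separated the *Nfib* 5mC peak from the closest 5hmC peak. The share of the whole lists that overlaps between the marks was not computed. This lack of overlap is therefore not read as a trait of the NFI genes.

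**Figure D2:**
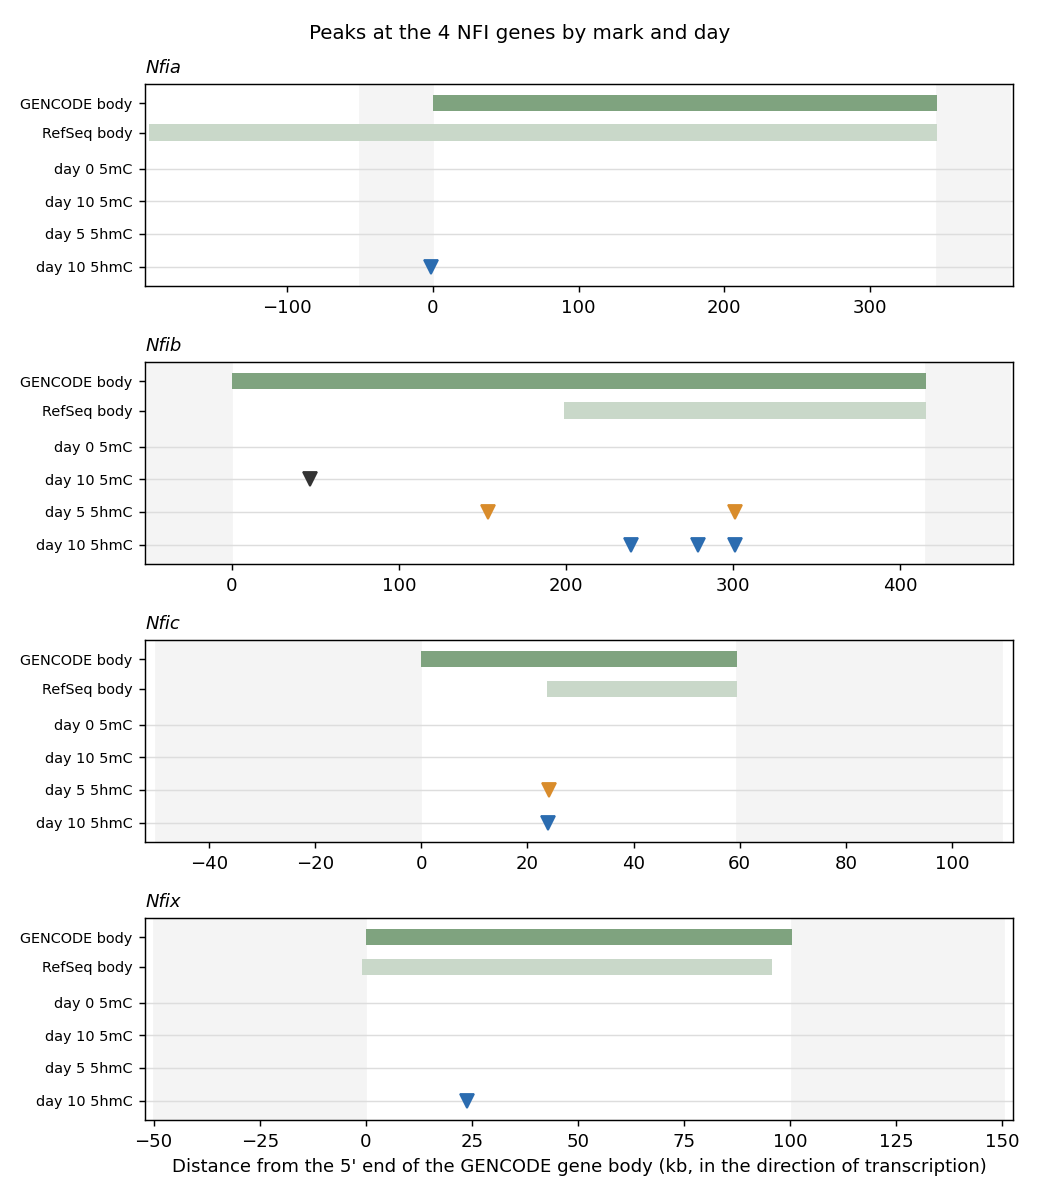
Position of each peak (triangles, midpoint) along the 4 NFI genes in kb from the 5′ end of the GENCODE gene body, with 1 row for each list, the GENCODE and RefSeq bodies as bars and the 50 kb on either side of the GENCODE body shaded. *Nfib* carries 6 of the 10 peaks, and the *Nfia* peak lies just before the GENCODE body but inside the RefSeq one.

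*Nfic*, on chromosome 10 from 81396186 to 81455635 on the minus strand (59.5 kb), had 1 5hmC peak at each day, and these overlapped. The day 5 peak was chr10:81431072-81432080 and the day 10 peak chr10:81431663-81431791. In GENCODE their midpoints were 571 and 722 bp upstream of the nearest coding start, in intron 1 of 1 longer transcript. In RefSeq the day 10 peak lay wholly within the first exon of 2 of 4 transcripts, in a part that is not coding, and the day 5 peak spanned the start of that exon at position 81431919. The *Nfic* region was thus within 1 kb of a start by both annotations, and the *Nfib* region was not. The nearest day 10 5mC peak was 104 kb away, assigned to *Tjp3*.

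*Nfix*, on chromosome 8 from 84699876 to 84800344 on the minus strand (100.5 kb), had 1 day 10 5hmC peak, chr8:84776408-84776521. It lay in intron 1 of 3 of its 5 coding transcripts and 2095 bp upstream of the nearest GENCODE coding start. RefSeq gives more starts for this gene, and the nearest was 450 bp downstream of the peak. The closest day 5 5hmC peak was 145 kb away, in a region assigned to the calcium channel gene *Cacna1a*.

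*Nfia*, on chromosome 4 from 97772734 to 98118874 on the plus strand (346 kb), also had 1 day 10 5hmC peak, chr4:97771039-97771177. Its midpoint was 1626 bp upstream of the first GENCODE coding start. RefSeq starts *Nfia* further upstream, at 97578066, so that the same peak was intronic in 3 of 9 RefSeq transcripts. It also lay inside *E130114P18Rik*, a gene on the opposite strand. No other peak was near *Nfia*. The closest day 5 5hmC peak was 1266 kb away and the closest day 10 5mC peak 386 kb away.

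Of the 9 5hmC peaks at NFI genes, 4 lay within 5 kb of a coding start of their gene, those of *Nfia*, *Nfic* and *Nfix*, and the other 5 were deep in *Nfib*. Over the whole lists, 16.8% of day 5 and 15% of day 10 5hmC peaks had their midpoint within 5 kb of a coding start. These shares count a start of any gene and include peaks far from genes. The NFI peaks were chosen for lying at a gene, so their count cannot be compared with these shares. None of the 10 peaks overlapped a GENCODE exon of any gene, where 21.4% of day 5 5hmC, 9.46% of day 10 5hmC and 43.4% of day 10 5mC peaks did. RefSeq promoter windows (300 bases around a start) were at hand for *Nfia*, *Nfic* and *Nfix*, 6 in all, and none overlapped a peak. The only *Nfic* window was not at the start that the day 5 *Nfic* peak spans, so that start was not covered by this comparison. The only *Nfia* window was 189047 bp from any peak. The RefSeq start 1340 bp from the *Nfia* peak was thus not covered either. How many of all promoter windows overlap a peak was not computed, so the lack of overlap is not read as a result. The closest window, one of *Nfix* at chr8:84775779-84776078, was 330 bp from the *Nfix* peak.

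5hmC regions of day 5 and day 10 were called shared when they had 1 bp or more in common. Of the 3 day 5 5hmC peaks at NFI genes 2 overlapped a day 10 peak, against 29.6% of that whole list. In the other direction it was 2 of 6 peaks, against 17.1% of the day 10 list. *Nfib* and *Nfic* each had such a pair, as did 4.41% of protein-coding genes (7.39% at 50 kb or more and 9.19% at 100 kb or more). Both day 10 peaks lay inside the day 5 peak, as did 98.2% of the 710 overlapping day 10 peaks. The *Nfib* day 10 peak covered 170 bp of 655 bp, and its midpoint was 127 bp to the left of the day 5 midpoint. The *Nfic* day 10 peak covered 129 bp of 1009 bp, with its midpoint 151 bp to the right. Day 10 peaks were narrower than day 5 peaks throughout, with medians of 147 and 819 bp, so neither pair shared 50% of both peaks.

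**Figure D3:**
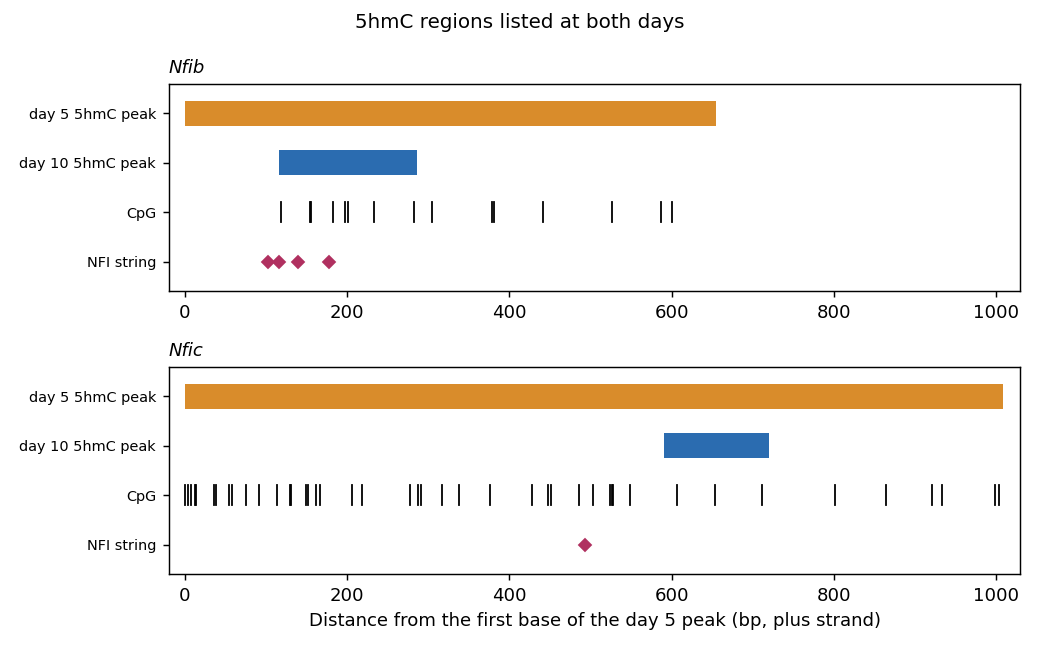
The *Nfib* and *Nfic* 5hmC regions listed at both days, in bp from the first base of the day 5 peak on the plus strand, with the day 5 peak (orange), the day 10 peak (blue), each CpG (ticks) and each NFI string TTGGCA on either strand (diamonds). In *Nfib* the 4 NFI strings lie around the left end of the day 10 peak and 8 of the 15 CpG lie inside it. In *Nfic* 3 of the 44 CpG lie inside the day 10 peak, and the only NFI string lies outside it.

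The peaks differed in CpG content. The *Nfib* day 10 peak of the pair had 4.71 CpG per 100 bp, more than 97.1% of the day 10 5hmC list, in a gene body with 1.03 per 100 bp. The day 5 peak around it had 2.29 per 100 bp, more than 83.3% of its list. The *Nfic* day 5 peak had 4.36 per 100 bp, more than 97.9% of its list, and the day 10 peak inside it 2.33 per 100 bp, so the narrow *Nfic* peak did not lie over the part richest in CpG. At the other end, the *Nfia* peak had 1 CpG in 139 bp (0.719 per 100 bp), and only 11.9% of day 10 5hmC peaks had fewer. The *Nfix* peak had 2 CpG in 114 bp (1.75 per 100 bp), close to the list's median of 1.80. The day 10 peaks in *Nfib* without a day 5 partner had 2.72 and 1.92 per 100 bp. The *Nfib* 5mC peak had 11 CpG in 860 bp (1.28 per 100 bp), well under the median of 2.42 in the day 10 5mC list, where 10.1% of peaks had fewer.

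Each peak was also set beside stretches of its own width that began 2000 bp away on either side. The *Nfib* day 10 peak of the pair stood highest over them, with 4.71 against 0.882 CpG per 100 bp. The *Nfic* day 5 peak had 4.36 against 1.44. In all, 6 of the 10 peaks had more CpG than these flanks. The flanks of the other peaks in the lists were not examined. This count, which pools both marks, is therefore not read as high or low. The *Nfix* peak had as many as its flanks (1.75 per 100 bp), and the *Nfia* peak (0.719 against 2.16), the *Nfic* day 10 peak (2.33 against 3.49) and the *Nfib* 5mC peak (1.28 against 1.45) had fewer. Annotated repeats covered none of the *Nfia* peak and of the paired *Nfib* day 10 peak, where the median of the day 10 5hmC list was also 0%. They covered 20.7% to 27.2% of the other 4 day 10 5hmC peaks and 19.4% of the 5mC peak, so part of these peaks is repeat sequence. The day 0 5mC list, in which no NFI gene appears, had a median of 78.7%.

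**Figure D4:**
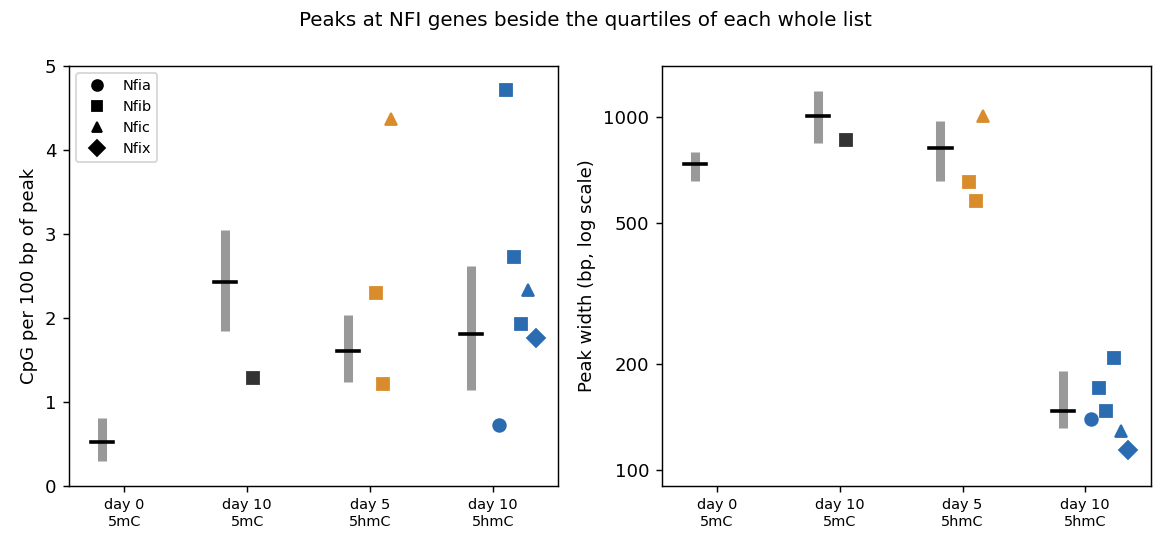
CpG per 100 bp (left) and width in bp on a log scale (right) of each peak at an NFI gene, beside the quartiles (grey bar) and median (black line) of its whole list. In the day 10 5hmC list the NFI peaks run from 0.719 CpG per 100 bp at *Nfia* to 4.71 at *Nfib*, and their widths from 114 bp at *Nfix* to 208 bp at *Nfib*.

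Since these genes encode the factors that bind it, the NFI string was searched in the peaks on both strands. TTGGCA was found in 2 of 3 day 5 5hmC peaks, 1 of 6 day 10 5hmC peaks and the 5mC peak of the NFI genes, against 48.1%, 17.9% and 41.3% of the whole lists. The lists differ in peak width. In 200 bp around the midpoint the string was in 1 of 3, 1 of 6 and the 5mC peak, against 18.2%, 20.4% and 8.2% of the lists. Of 32851 RefSeq promoter windows of 300 bp, 14.1% held it. With 10 peaks in all, these counts set the NFI genes apart in no list.

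The *Nfib* region held several copies. Its day 5 peak had 4 copies of the longer string CTTGGCA within 82 bp, at 82404428, 82404440, 82404463 and 82404503. The first and the last were in reverse orientation, and 5, 16 and 33 bases lay between neighbours. One or more copies were present in 23.5% of day 5 5hmC peaks and 2 or more in 3.5%. In that list of 2058 peaks, 2 had 4 copies and none had more, and the other was assigned to *Mylk2*. The *Nfib* day 10 peak held 2 of the 4 copies whole, and 16 of 4164 day 10 5hmC peaks (0.384%) had 2 or more. In RefSeq promoter windows 2 or more copies were present in 0.149%. The first pair of copies, 5 bases apart, has its arms in the reverse order of the palindrome (TGCCAAG, then CTTGGCA) and is not that palindrome, which was in none of the 10 peaks. Over the whole lists the palindrome was in 0.146% of day 5 5hmC, 0.0833% of day 10 5mC and 0% of day 10 5hmC peaks. At such shares its absence from 10 peaks is not a result. The count of copies at *Nfib* was singled out after its value was seen, and a string match is not a bound site.

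Strings of other factors were counted in the same way. AP-1 (TGACTCA) was in 0 of 3 day 5 and 1 of 6 day 10 5hmC peaks, the *Nfib* peak that starts at 82426928, against 43.1% and 7.97% of the lists. RUNX (TGTGGT) was in 1 of 3 and 1 of 6, both in *Nfib*, against 57.8% and 19.5%, and it was in the *Nfib* 5mC peak, against 52.3% of the day 10 5mC list. SOX (ACAATGG or ACAAAGG) was in 1 of 3, the *Nfib* day 5 peak not found at day 10, and 0 of 6, against 27.2% and 5.38%. All these hits in 5hmC peaks were at *Nfib*, which also holds 5 of the 9 5hmC peaks.

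A list of 13 genes known as partners or targets of NFI factors was counted by the same rule. Day 10 5hmC peaks were found at 5 of them (*Sox9*, *Foxa1*, *Hes1*, *Zcchc24* and *Nfatc4*) and day 5 5hmC peaks at 3 (*Sox9*, *Zcchc24* and *Nfatc4*), against 20.6% and 14% of protein-coding genes. Of the 5, only *Zcchc24* had a day 10 peak in its gene body. The *Foxa1* peak was 31.5 kb from the gene with no symbol assigned. *Zcchc24*, a target that NFIA and SOX9 share in glia, had 3 peaks at each day, and the day 10 peak chr14:25724941-25725245 lay inside the day 5 peak chr14:25724403-25725661 in its gene body. A further overlapping pair, chr14:25796175-25797216 and chr14:25796471-25796647, lay 27.1 and 27.4 kb away with no symbol assigned. *Nfatc4*, a target of NFIX in fetal muscle, had a day 5 peak in its body (chr14:55825165-55826261) that was not found at day 10. Its other day 5 peak was 29.5 kb away and assigned to *Nynrin*, and its day 10 peak was 32.5 kb away and assigned to *Ripk3*. The 3 day 10 peaks near *Hes1*, a Notch target that NFIA represses, were 28.7 to 38.1 kb from the gene. *Sox9* had its day 5 peak 37 bp past its end and 2 day 10 peaks at 8.65 and 46.5 kb. None of the 13 had a day 10 5mC peak, against 15.9% of protein-coding genes. The day 0 5mC list had a peak at 1 of them, 13.3 kb from *Dnmt1* and assigned to *S1pr2*, against 1.84%. The other 7 genes (*Sox2*, *Ski*, *Gfap*, *Ezh2*, *Apcdd1*, *Mmd2* and *Col1a2*) had no peak in any list. A gene with no listed peak may still carry the mark below the fold limit of its list.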

How the data were processed

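Genomic DNA was enriched for 5mC by affinity to methyl-CpG binding proteins and for 5hmC by a biotin tag added through glucosyltransferase. The reads were trimmed with cutadapt and aligned to GRCm38 with BWA by the authors, who kept alignments of mapping quality above 5 and ran MACS 1.4.2 for peaks, per the labels and the methods. The deposited lists hold peak positions and assigned symbols, with no score, count or fold per peak, and their control sample is not given in the sources used here. Depth is therefore unknown. The methods give the aim of peak calling as gain or loss of a mark between chondrocytes and progenitors, so a list may hold sites of change and not all sites of the mark.

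Empty rows (27818 at day 5 and 25449 at day 10 in the 5hmC files) were dropped. Every one of the 8949 peaks fitted within its chromosome in the reference. Positions were read as 1-based with both ends included, since the files do not state their convention, and starts may be off by 1 base. Gene bodies came from GENCODE mouse release 21, with RefSeq as an alternative, and sequence from the RefSeq copy of the same build. Distances to a start are from the peak midpoint and distances to a gene body from the peak edge. Strings were searched on both strands. Counting was done in Python 3.11.15 with pysam 0.24.0 and SciPy 1.17.1, and was tested on simulated data. The members, the lists and the settings were chosen with earlier results of these data known. The share of genes of at least 50 kb was added after the gene lengths were seen. By the naming rule, all 4 genes and all their peaks are given, since none had more than 15 in a list. Sequences were to come from overlapping 5hmC pairs, peaks at a promoter and peaks with an NFI string. One gene of the partner list is not reported here.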

Additional observations from a re-analysis of the deposited data

How the results depend on the processing

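No paired analysis was possible because each 5hmC list joins both numbered samples of its day. Leaving out a sample and a stricter peak threshold could not be tried either, since the lists carry no per-sample or per-peak values. Of 52 alternatives over 13 results, 33 left the count or share as reported or close to it. A change from 3 to 2 was taken as close, and one from 2 to 1 was not. This tally does not measure stability, since some alternatives could change nothing. The nearest day 0 5mC peak, for example, was 126 kb from an NFI gene, beyond every distance tried. The *Nfib* 5mC count fell from 1 to 0 with the authors' symbol alone and with RefSeq gene bodies. The number of peaks at NFI genes was otherwise 6 to 7 (day 10 5hmC) and 3 to 2 (day 5 5hmC) under the distances, symbols and merging tried, and 5 for day 10 5hmC in the gene body by position alone, which was added later and leaves out *Nfia*. With 50% of each peak required to overlap, 0 day 5 and 0 day 10 peaks overlapped, which follows from the widths. The palindrome gave 0 peaks at NFI genes in each list, where at most 0.146% of all peaks held it. CTTGGCA gave 0 for 5mC and 1 for day 5 5hmC, TTGGC gave 2 for day 10 5hmC, and 200 bp windows gave 1 for day 5 5hmC. The background share over genes of at least 100 kb was 3.29% (day 0 5mC), 27.6% (day 10 5mC), 24.8% (day 5 5hmC) and 39.3% (day 10 5hmC), and with the gene body alone 0.547%, 6.41%, 5.01% and 7.96%.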

Other observations

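Outside the NFI genes, 1 day 10 5hmC peak held 3 copies of CTTGGCA, the most in that list. It lay on chromosome 5 from 65097863 to 65098156, inside a day 5 5hmC peak from 65097401 to 65098447 that also held 3, and the authors assigned neither to a gene. In the day 10 5mC list 3 peaks held 3 copies, assigned to *Myc*, *Crtac1* and *Raver2*. These regions were picked for their count of copies after it was seen, and no test was run on them.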
